A study of Arabidopsis thaliana with 8 samples.

Results

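The 10 genes described here belong to the sugar-starvation response of Arabidopsis thaliana leaves and were chosen because their signals were low in the cold. The choice rested on the comparison of cold with warm wild type, with results of all arrays already known, so their cold differences are given as a description and without a test. The set consists of AKINBETA1, AT5G19120, AT2G32150, AT4G27450, AT2G30600, AT2G20670, AT3G15630, AT1G22890 and the probe sets 252415_at and 253161_at. AT2G30600 is measured by 2 probe sets, so that the 10 genes have 11 probe sets of the 22746 on the array that are not controls. All 11 were among the 13648 probe sets bright enough to be tested, and they passed that filter through their warm signals. The probe sets 252415_at and 253161_at are paired with no gene in the annotation table used here. The definition of the set gives them as ASN1 (DIN6) and SEN1 (DIN1), and they are called by their identifiers below.

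Plants that run short of sugar, for example in prolonged darkness, activate the kinase complex SnRK1, which slows growth and switches on genes for breaking down protein, amino acids and other reserves. The dark-inducible (DIN) genes, asparagine synthetase among them, are used as markers of this state because sugar represses them. Leaves in the cold are known to accumulate soluble sugars.

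The study measured transcripts of sfr3, a mutant that is damaged by freezing, and of its wild type, on Affymetrix ATH1 arrays, 1 for each of 8 samples. The 4 groups, of 2 samples each, were sfr3 in the cold, sfr3 kept warm, wild type Col-0 in the cold and wild type Col-0 kept warm. The sfr3 line came from ethyl methanesulfonate mutagenesis of Col-0, and its mutation is known to lie in the acetyl-CoA carboxylase gene ACC1. Plants of all groups were raised for 38 days at 20 °C and 70% humidity under 8 h of light and 16 h of darkness, at a light intensity of 100 microEinsteins, following 48 h at 4 °C as seeds, and were at growth stage 1.14. The labels used here state neither the temperature nor the length of the cold exposure nor the time of day of harvest, so that time of day and temperature cannot be told apart. The tissue is labelled as aerial parts for sfr3 and as the entire rosette for wild type, so that what was collected and the genotype cannot be told apart. Nothing in the labels says that replicates came from separate plants, so the p-values rest on a spread between samples that could be technical. In whole tissue, fewer cells of a type and less RNA per cell cannot be told apart.

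The 8 arrays were scaled to a common mean, and 1 of them stood apart. On cold sfr3 replicate 1 the 18 hybridisation controls were at 5.75 times their level on the other arrays, against 0.542 to 1.18 times on each of the others. The background of that array, the 95th percentile of 27 dark control probe sets, was at a signal of 35.4, against 6.37 to 11.3 on the other 7. The median absolute log2 difference between the replicates of a group, over all tested probe sets, was 0.552 in cold sfr3, 0.231 in warm sfr3, 0.179 in cold wild type and 0.214 in warm wild type. For the 11 probe sets of the set the same medians were 1.06, 0.155, 0.244 and 0.149. The fit shares 1 estimate of the spread among all groups, and in data simulated with the larger spread of cold sfr3 it made more false calls for cold in sfr3 than its threshold allows. The simulated noise was drawn anew for every array from probe sets of similar brightness, so each probe set's own spread was not kept. How much of the excess comes from that was not tested. Adjusted p-values for cold sfr3 can be too small. Values without cold sfr3 replicate 1 are given for the set as a whole and beside several single genes. The leaf markers RCA and LHCB4.1, for Rubisco activase and a chlorophyll-binding protein, were bright on every array, with signals from 5759.7 to 9165, and 2 of 5 leaf markers were paired with a probe set. Of the 5 root markers only PYK10, a glucosidase of roots, was paired. It read 112 and 40.01 on the cold sfr3 arrays, against 202 and 199 on the warm sfr3 arrays, and 28.8 and 31.8 on the cold wild-type arrays, against 196 and 132 on the warm wild-type arrays. It fell in both genotypes, with log2 differences of -1.55 in sfr3 (adjusted p = 0.0218 in limma, but 0.113 and 0.103 without warm sfr3 replicate 1 or 2 and 0.0740 with only the groups compared; -2.27 without cold sfr3 replicate 1 and -0.83 without cold sfr3 replicate 2) and -2.33 in wild type (adjusted p = 0.00342). The part of this fall in the results below was not tested. Of the 5 flower markers only A9 (AT5G07230) was paired, with signals from 1.00 to 35.0, and it was above background in cold wild type alone.

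All 11 probe sets were low on each of the 4 cold arrays and high on each of the 4 warm arrays, in both genotypes. The lowest warm array of a probe set was at least 5.60 times its highest cold array, a value found for AT1G22890 in sfr3. On the log2(signal + 2.17) scale the median difference of cold minus warm over the set was -4.60 in sfr3, against 0.06 over all tested probe sets. In wild type it was -4.96, against -0.00 over all tested. Of all tested probe sets, 16.4% were called lower in the cold in sfr3 and 13.3% in wild type. That all 11 point the same way follows from how they were chosen. Without cold sfr3 replicate 1 the median in sfr3 was -4.997, with single values from -7.92 to -3.36.

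**Figure D1:**
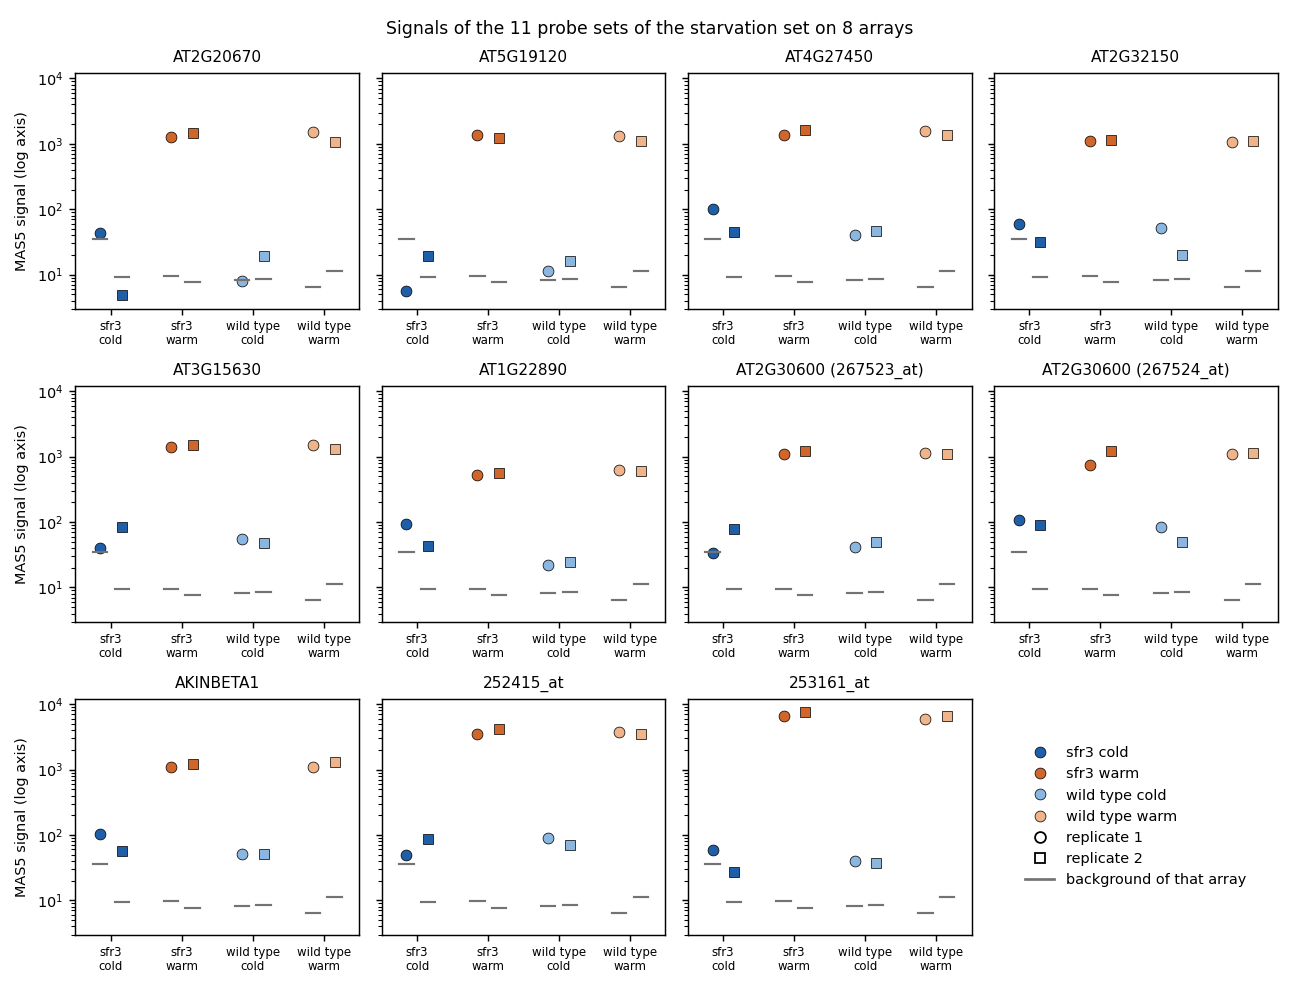
Signals of the 11 probe sets on the 8 arrays, on a logarithmic axis, with 1 panel per probe set, circles for replicate 1 and squares for replicate 2. Grey lines mark the background of each array, which is at 35.4 on cold sfr3 replicate 1. In every panel the 4 cold arrays lie below the 4 warm arrays.

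AKINBETA1 (AT5G21170) encodes a beta subunit of SnRK1, the kinase that drives the starvation response. Its signals were 105 and 56.7 on the cold sfr3 arrays, against 1109 and 1231 on the warm sfr3 arrays, a 14.5-fold lower mean. In wild type they were 50.4 and 50.7 in the cold, against 1102 and 1288 in the warm, 23.6-fold lower. The warm groups overlapped, and both cold sfr3 arrays were above both cold wild-type arrays. The log2 differences were -3.88 in sfr3 and -4.50 in wild type (SE 0.27 each), ranks 85 and 39 among all falls in the 13648 probe sets.

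The probe set 253161_at, given as SEN1 (DIN1), a gene known to be induced by darkness and in senescing leaves, read 58.2 and 26.8 on the cold sfr3 arrays, against 6589 and 7516 on the warm sfr3 arrays. In wild type it read 40.01 and 37.5 in the cold, against 5978 and 6627 in the warm. The mean in the cold was 166-fold lower in sfr3 and 163-fold lower in wild type, and the log2 differences of -7.40 and -7.27 (SE 0.30 each) were the largest falls of any tested probe set in each genotype. The probe set 252415_at, given as ASN1 (DIN6), an asparagine synthetase that stores nitrogen in asparagine when carbon is short, read 49.8 and 87.4 on the cold sfr3 arrays, against 3486 and 4191 on the warm sfr3 arrays. In wild type it read 89.1 and 70.8 in the cold, against 3723 and 3451 in the warm. The log2 differences were -5.81 and -5.46 (SE 0.26 each), rank 13 in both genotypes. The genotypes overlapped at both temperatures for 252415_at, and at each temperature for 253161_at.

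Members with predicted enzyme activity followed the same pattern. AT5G19120, of the aspartyl protease family, read 5.59 and 19.3 on the cold sfr3 arrays, against 1371 and 1241 on the warm sfr3 arrays, and 11.4 and 16.0 on the cold wild-type arrays, against 1337 and 1123 on the warm wild-type arrays. The value of 5.59 on cold sfr3 replicate 1 is under the background of that array. Its log2 differences were -6.66 in sfr3 and -6.29 in wild type (SE 0.41 each). AT2G32150, which encodes a hydrolase of the haloacid dehalogenase type, read 60.4 and 31.8 on the cold sfr3 arrays, against 1089 and 1156 on the warm sfr3 arrays. In wild type it read 51.3 and 20.2 in the cold, against 1058 and 1093 in the warm, with log2 differences of -4.61 in sfr3 and -4.96 in wild type (SE 0.40 each). For both genes the 2 genotypes overlapped in the cold and in the warm.

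AT4G27450 belongs to a family named after a wheat protein induced by aluminium. It read 99.4 and 44.2 on the cold sfr3 arrays, against 1353 and 1618 on the warm sfr3 arrays, and 39.9 and 45.9 on the cold wild-type arrays, against 1565 and 1384 on the warm wild-type arrays. The log2 differences were -4.43 in sfr3 and -5.03 in wild type (SE 0.32 each), and cold sfr3 replicate 1 was the one cold array that stood clear of the other 3.

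AT2G30600 encodes a protein with a BTB/POZ domain, a fold through which proteins pair. Its probe set 267523_at read 33.7 and 79.5 on the cold sfr3 arrays, against 1108 and 1235 on the warm sfr3 arrays, and 42.2 and 50.4 on the cold wild-type arrays, against 1152 and 1081 on the warm wild-type arrays. The other, 267524_at, read 108 and 91.0 on the cold sfr3 arrays, against 758 and 1208 on the warm sfr3 arrays, and 83.2 and 49.4 on the cold wild-type arrays, against 1116 and 1157 on the warm wild-type arrays. The log2 differences were -4.44 and -3.24 in sfr3 and -4.53 and -4.10 in wild type, with SEs of 0.33 for 267523_at and 0.29 for 267524_at. The probe sets were low on the same 4 arrays and differed in the order of the cold sfr3 and cold wild-type arrays, which overlapped for 267523_at and not for 267524_at.

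The other 3 members have no function given here. AT2G20670 read 43.6 and 4.88 on the cold sfr3 arrays, against 1283 and 1484 on the warm sfr3 arrays, and 8.12 and 19.0 on the cold wild-type arrays, against 1498 and 1081 on the warm wild-type arrays. Its signals on cold sfr3 replicate 2 and on cold wild-type replicate 1 were under the background of those arrays, and the SE of its log2 differences, -6.27 in sfr3 and -6.43 in wild type, was the largest of the set at 0.71. AT3G15630 read 40.6 and 84.6 on the cold sfr3 arrays, against 1421 and 1532 on the warm sfr3 arrays, and 54.9 and 47.1 on the cold wild-type arrays, against 1503 and 1292 on the warm wild-type arrays. Its log2 differences were -4.60 in sfr3 and -4.72 in wild type (SE 0.30 each). AT1G22890 was the member whose genotypes lay farthest apart. It read 92.1 and 42.7 on the cold sfr3 arrays, against 516 and 565 on the warm sfr3 arrays, and 21.7 and 24.3 on the cold wild-type arrays, against 616 and 595 on the warm wild-type arrays. Its sfr3 arrays were both above the wild-type arrays in the cold and both below them in the warm, and its log2 differences were -3.06 in sfr3 and -4.59 in wild type (SE 0.31 each).

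Of the 44 cold values of the set, 4 were under the background of their array, among them that of 267523_at on cold sfr3 replicate 1, and of the 44 warm values 0 were. No probe set was under background on both arrays of a group. The cold replicates of sfr3 disagreed in both directions. Replicate 1 was the higher in 7 of 11 probe sets, and its signal was between 0.289 and 8.94 times that of replicate 2.

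**Figure D2:**
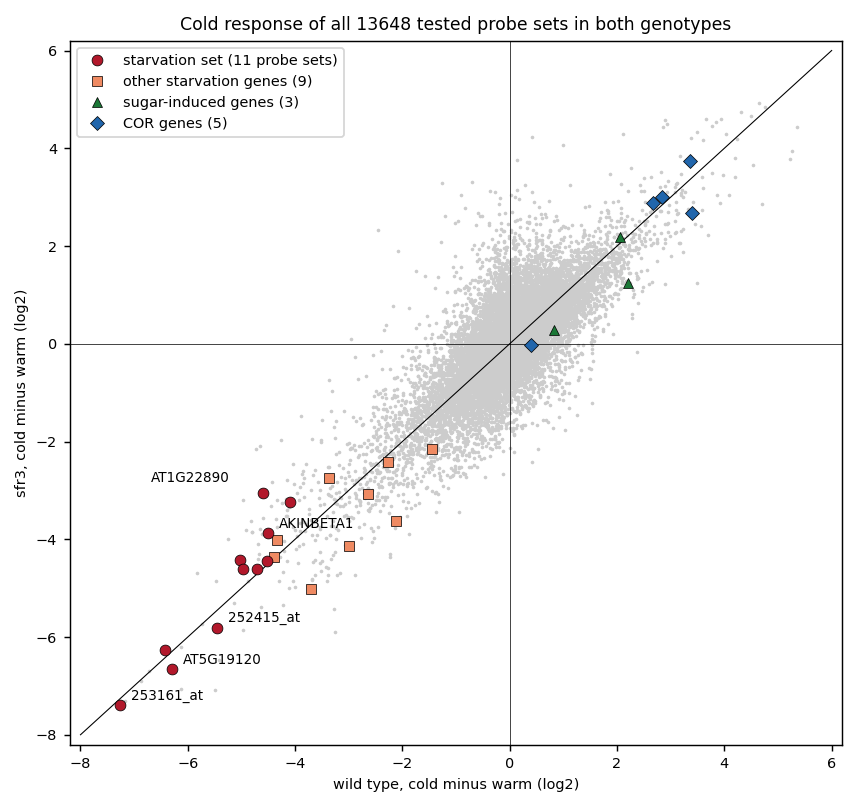
Cold minus warm on the log2(signal + 2.17) scale for each of the 13648 tested probe sets, in wild type on the horizontal axis and in sfr3 on the vertical axis, with the line of equal response. The 11 probe sets of the set lie at the lower left near the line, with AT1G22890 at -4.59 in wild type and -3.06 in sfr3, and the 3 sugar-induced and 5 cold-regulated (COR) genes lie right of 0.

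Whether sfr3 differs from wild type in the level of these genes was tested on the mean over both temperatures. The members were not picked on this comparison. Results of all arrays were known when they were chosen, so the test is not independent of the choice. In limma's fit none of the 11 probe sets was called (adjusted p below 0.05), with a lowest adjusted p of 0.828, and 1 had an unadjusted p below 0.05. Over all tested probe sets 7 were called, or 0.0513%, and 717 had an unadjusted p below 0.05, or 5.25%. The difference of sfr3 minus wild type was above 0 for 9 probe sets and below 0 for 2. The median was 0.18 on the log2 scale, against -0.01 over all tested, and the values ran from -0.10 to 0.60. A p that misses the threshold does not show that the genotypes are alike, and the 95% intervals set the limits.

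For AKINBETA1 the difference was 0.28, with a 95% interval from -0.14 to 0.71. It was 0.10 for 253161_at (-0.38 to 0.57) and -0.08 for 252415_at (-0.50 to 0.33). The widest interval was that of AT2G20670, with 0.20 and a range from -0.93 to 1.33. AT1G22890 had the largest difference, 0.60 (SE 0.22, interval 0.11 to 1.099), with an unadjusted p of 0.0226 and an adjusted p of 0.828 in limma. The other 6 probe sets had differences between -0.10, for AT5G19120, and 0.31, for AT4G27450, and their intervals all held 0.

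The outcome turned on the cold sfr3 arrays. Without replicate 1, again 0 of 11 were called (lowest adjusted p 0.254 in limma), with a median of 0.11. AT1G22890 was then at 0.33 (adjusted p = 0.410), AKINBETA1 at 0.066 and AT4G27450 at 0.027. Without replicate 2, which leaves replicate 1 as the lone cold sfr3 array, assumed to vary like the other groups, 6 were called in limma. AT2G20670 was at 0.87, AT1G22890 at 0.87, AT4G27450 at 0.59, AKINBETA1 at 0.50 and 253161_at at 0.36, and AT5G19120 was at -0.46. In that fit 3250 of all tested probe sets were called. AT2G20670, AT5G19120, 252415_at and 253161_at changed sign without replicate 1, to -0.48, 0.27, 0.11 and -0.17.

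**Figure D3:**
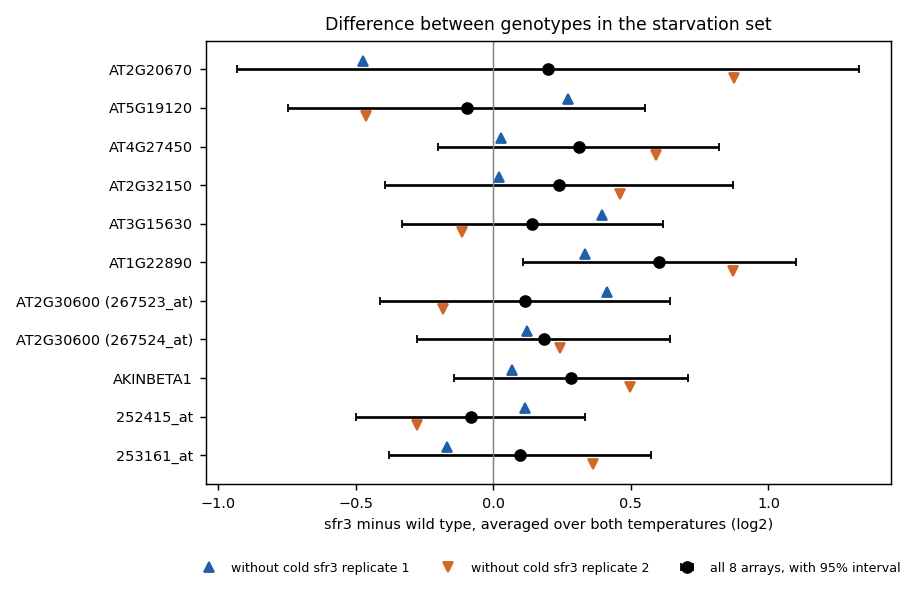
Difference of sfr3 minus wild type averaged over both temperatures (log2) for the 11 probe sets, with all 8 arrays as black points and 95% intervals and without either cold sfr3 array as triangles. The interval of AT1G22890, 0.11 to 1.099, is the one that does not hold 0. For each probe set the black point lies midway between the triangles by construction.

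The comparisons within 1 temperature share wild-type arrays with the comparison that chose the members, so the members' values there are a description, without p-values or calls. In the cold, 17 of all tested probe sets were called in limma, or 0.125%. The cold groups did not overlap for 3 of 11 members' probe sets, where they did not for 41.9% of all tested. These were AT1G22890 at a difference of 1.37 (SE 0.31), AKINBETA1 at 0.59 and 267524_at at 0.61, each higher in sfr3. For AT1G22890 the difference was 0.83 without cold sfr3 replicate 1 and 1.91 without cold sfr3 replicate 2. For AKINBETA1 these values were 0.16 and 1.02, and for 267524_at 0.49 and 0.73. In the warm, 0.0% of all tested probe sets were called in limma. The warm differences ran from -0.25 to 0.16, and 1 of 11, AT1G22890, did not overlap, lower in sfr3, where 30.8% of all tested did not.

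The cold response itself was compared between genotypes as the interaction, the log2 difference in sfr3 minus that in wild type. It subtracts the wild-type difference by which the members were chosen, so a large wild-type fall is favoured by the choice and these values too are a description. No call is made for the members here, and of all tested probe sets 5 were called in limma, or 0.0366%. AT1G22890 stood at 1.53 (SE 0.44), a smaller difference in sfr3. Without cold sfr3 replicate 1 it was at 0.998, and without cold sfr3 replicate 2 at 2.07. The other probe sets ran from -0.37 for AT5G19120 to 0.86 for 267524_at. For 253161_at and 252415_at the values were -0.13 and -0.35.

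Further genes that starvation is known to induce were taken from a list of 28, put together with earlier results of these data known. Of these, 9 were paired with a probe set and tested, and 9 of 9 fell in the cold in both genotypes. The median was -3.62 in sfr3 and -2.998 in wild type, against 0.06 and -0.00 over all tested probe sets, of which 16.4% and 13.3% were called lower. Enzymes of leucine breakdown were among them. MCCA, for a subunit of methylcrotonyl-CoA carboxylase, read 56.9 and 60.7 on the cold sfr3 arrays, against 1176 and 1336 on the warm sfr3 arrays, and 58.0 and 37.5 on the cold wild-type arrays, against 992 and 1055 on the warm wild-type arrays. Its log2 differences were -4.36 in sfr3 (adjusted p = 5.57e-06) and -4.39 in wild type (adjusted p = 6.66e-06). MCCB, the other subunit, had log2 differences of -2.16 in sfr3 and -1.45 in wild type, and IVD, isovaleryl-CoA dehydrogenase, had -4.14 in sfr3 and -2.998 in wild type. AT4G33150, for the enzyme that starts lysine breakdown, was at -2.42 in sfr3 and -2.27 in wild type.

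ATG8E, which encodes a protein of the autophagosome membrane, fell in sfr3 (-5.01, adjusted p = 1.46e-04) and in wild type (-3.70, adjusted p = 7.4e-04). ATL8, a RING-type ubiquitin ligase gene, had -3.07 in sfr3 and -2.64 in wild type. AT3G15450, of the same family as AT4G27450, read 1175 and 559.5 on the cold sfr3 arrays, against 4963 and 5972 on the warm sfr3 arrays, and 493 and 507 on the cold wild-type arrays, against 5249 and 5182 on the warm wild-type arrays. Its log2 differences were -2.74 in sfr3 and -3.38 in wild type. AT1G54740 had -4.02 in sfr3 and -4.33 in wild type, and EXO, a cell wall protein of growth control, -3.62 in sfr3 and -2.12 in wild type. On cold sfr3 replicate 1 the signals of EXO, IVD, ATG8E and AT1G54740 were under the background of that array. Without that array the sfr3 differences were -3.20 for EXO, -3.002 for IVD, -4.12 for ATG8E, -3.92 for AT1G54740 and -3.28 for AT3G15450, and all 9 genes were called in sfr3 in 18 of 18 alternatives.

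In wild type 3 of these 9 genes missed the threshold when a single array was left out. The adjusted p of IVD was 0.0534 without cold wild-type replicate 2 and 0.0598 without warm wild-type replicate 1. That of MCCB was 0.0584 without cold wild-type replicate 1 and 0.0653 without warm wild-type replicate 1, and that of EXO was 0.0626 without cold wild-type replicate 2 and 0.0756 without warm wild-type replicate 2. None of the 9 was called between sfr3 and wild type averaged over both temperatures in limma, with a lowest adjusted p of 0.828.

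**Figure D4:**
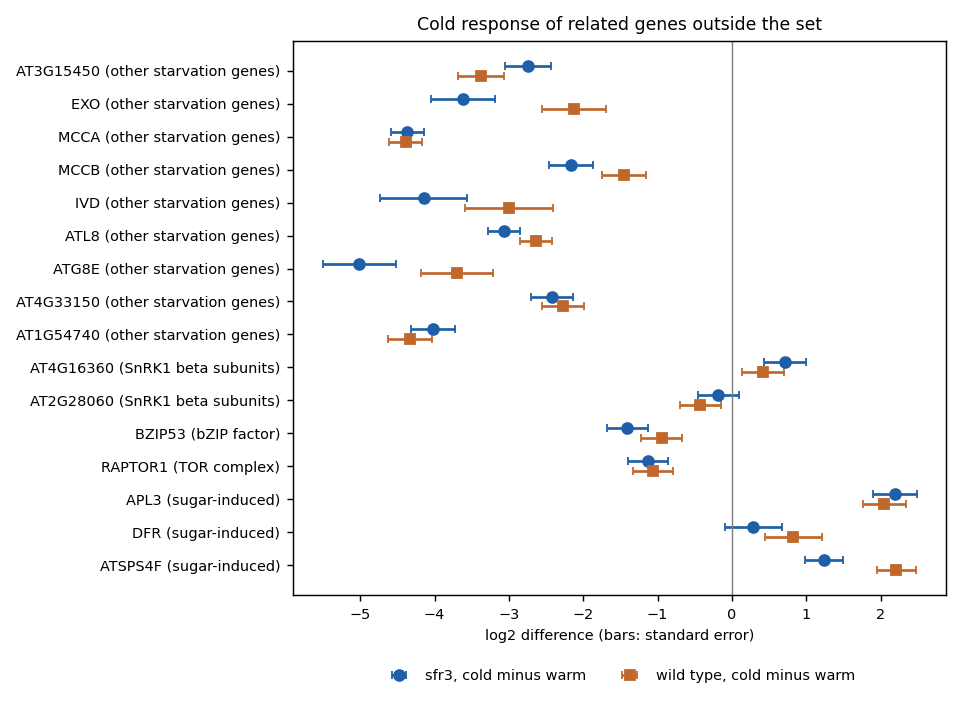
Cold minus warm (log2) of 16 tested genes outside the set, in sfr3 as blue circles and in wild type as brown squares, with bars of 1 standard error. The 9 other starvation genes lie left of 0 in both genotypes, the 2 other SnRK1 beta subunits lie near 0, and APL3 and ATSPS4F lie right of 0.

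The fall of AKINBETA1 was set beside the other subunits of its complex. Of 10 genes of SnRK1 and its upstream kinases, AKINBETA1 and the other beta subunits AT4G16360 (AKINBETA2) and AT2G28060 (AKINBETA3) were paired with a probe set. AT4G16360 read 123 and 135 on the cold sfr3 arrays, against 64.9 and 93.7 on the warm sfr3 arrays, and 159.9 and 103 on the cold wild-type arrays, against 88.2 and 103 on the warm wild-type arrays. Its log2 differences were 0.71 in sfr3 (adjusted p = 0.0821) and 0.42 in wild type (adjusted p = 0.322). AT2G28060 had -0.19 in sfr3 (adjusted p = 0.621) and -0.42 in wild type (adjusted p = 0.304), and 0.18 in sfr3 without cold replicate 2. Neither of the other beta subunits passed the test in either genotype.

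Transcription factors and kinase partners of the same signalling were thinly covered. Of 9 bZIP genes of the C and S1 groups, which act with SnRK1, 2 were paired and BZIP53 was tested. BZIP53 read 137 and 259 on the cold sfr3 arrays, against 471 and 539 on the warm sfr3 arrays, and 273 and 239.6 on the cold wild-type arrays, against 487 and 503 on the warm wild-type arrays. It fell in both genotypes, by a log2 difference of -1.41 in sfr3 (adjusted p = 0.00482) and of -0.95 in wild type (adjusted p = 0.0301). Without cold sfr3 replicate 1 the sfr3 difference was -0.96. The wild-type call held in 9 of 18 alternatives and was among other settings lost when either warm sfr3 array or 1 of the 4 wild-type arrays was left out (adjusted p from 0.0542 to 0.187). RAPTOR1, a partner of the growth-promoting TOR kinase and 1 of 8 genes listed for TOR and hexokinase signalling, fell in sfr3 (-1.13, adjusted p = 0.0131, and -0.75 without cold sfr3 replicate 1) and in wild type (-1.06, adjusted p = 0.0185). Its call was lost in sfr3 without either warm sfr3 array (adjusted p = 0.0725 and 0.0799) or with only the groups compared (0.0831), and in wild type with median centring (0.0920), with quantile normalization (0.104) or when 1 wild-type array was left out, whichever it was (adjusted p from 0.1002 to 0.111). Of the 8 listed DIN genes and of the 8 class II trehalose-phosphate synthase genes, 0 were paired with a probe set, and these groups were not analysed here.

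Of 13 listed genes that sugar is known to induce, 3 were tested, and 2 of 3 rose in the cold in each genotype, where 14.9% of all tested probe sets in sfr3 and 13.0% in wild type were called higher. APL3, a large subunit of the starch enzyme ADP-glucose pyrophosphorylase, read 135 and 197 on the cold sfr3 arrays, against 28.0 and 41.2 on the warm sfr3 arrays, and 160.2 and 166 on the cold wild-type arrays, against 33.9 and 42.1 on the warm wild-type arrays. It rose by 2.19 in sfr3 (adjusted p = 7.3e-04) and by 2.05 in wild type (adjusted p = 0.00105). ATSPS4F, a sucrose-phosphate synthase gene, read 144 and 186 on the cold sfr3 arrays, against 55.5 and 83.6 on the warm sfr3 arrays, and 314 and 281 on the cold wild-type arrays, against 56.8 and 68.8 on the warm wild-type arrays. It rose by 1.24 in sfr3 (adjusted p = 0.00694) and by 2.21 in wild type (adjusted p = 3.82e-04), but in sfr3 missed the threshold when warm replicate 1 was left out (adjusted p = 0.0638), with median centring (0.0543) and with only the groups compared (0.0534). DFR, of anthocyanin synthesis, did not pass, with 0.29 in sfr3 (adjusted p = 0.582) and 0.82 in wild type (adjusted p = 0.150), where it was called in 2 of 17 alternatives.

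Lists that the set touches were counted in the same way. Of the 10 listed senescence genes 3 were tested, and WRKY53, a transcription factor of early senescence, fell in sfr3 (-2.12, adjusted p = 0.0225) and in wild type (-2.48, adjusted p = 0.0124). The sfr3 value was -1.04 without cold sfr3 replicate 1 and -3.20 without cold sfr3 replicate 2, and the call ended without warm sfr3 replicate 1 or 2 (adjusted p = 0.131 and 0.0898) or with only the groups compared (0.0953) and, in wild type, with quantile normalization (0.0511) or when each of its 4 arrays was left out in turn (adjusted p from 0.0581 to 0.106). The WRKY53 signal of 9.11 on cold sfr3 replicate 1 was under the background of that array, against 48.1 on cold sfr3 replicate 2. SAG101 and SAG29 did not pass in either genotype with all arrays. In wild type SAG101, at -0.98 (adjusted p = 0.130), was called in 4 of 17 alternatives, and SAG29, at -1.38 (adjusted p = 0.207), was at -2.63 without cold wild-type replicate 1 (adjusted p = 0.0299) and at -0.14 without cold wild-type replicate 2. Of the 12 clock genes only GI, which regulates rhythms and flowering, was paired. It rose by 0.90 in sfr3 (adjusted p = 0.0097) and by 1.45 in wild type (adjusted p = 9.83e-04), and in sfr3 did not pass when warm replicate 1 was left out (adjusted p = 0.0735), with array weights (0.0744) or with median centring (0.121). Of the 8 COR genes listed, which mark cold acclimation, 5 were tested and 4 of 5 rose in each genotype, COR47 being the exception.

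The genes most like the set were taken as the 8 with the highest Pearson correlation, over the 8 arrays, between their log2 values and the mean standardised profile of the set. These points share arrays and fall into a cold and a warm cluster, so that r mostly says how cleanly a gene separates the temperatures, and no p is given. Among 7327 candidates paired with a gene, 372 had an r above 0.95 and 42 above 0.99, and the 8 chosen ran from 0.996 to 0.998. The members' own r with a mean that includes them ran from 0.975 for AT1G22890 to 0.998 for 253161_at. The most alike was EXGT-A3, a xyloglucan endotransglucosylase that remodels cell walls. It read 199.6 and 155 on the cold sfr3 arrays, against 1017 and 1162 on the warm sfr3 arrays, and 145 and 160.0 on the cold wild-type arrays, against 1108 and 936 on the warm wild-type arrays, with log2 differences of -2.61 in sfr3 and -2.72 in wild type.

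AT4G17245 followed, with -2.91 in sfr3 and -3.31 in wild type. AT4G12690 was not above background on either cold array of either genotype and was at least 4.57-fold lower in the cold in sfr3 and at least 7.58-fold lower in wild type. The genes most like the set were picked for separating the temperatures on these arrays, so their cold differences are a description, without p-values. AT4G05070, AT4G19860, AT5G16120, AT4G13530 and AT4G09830 had log2 differences from -2.20 to -1.36 in sfr3 and from -2.43 to -1.37 in wild type. The 7 genes other than AT4G12690 had smaller differences in both genotypes than the median of the set.

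**Figure D5:**
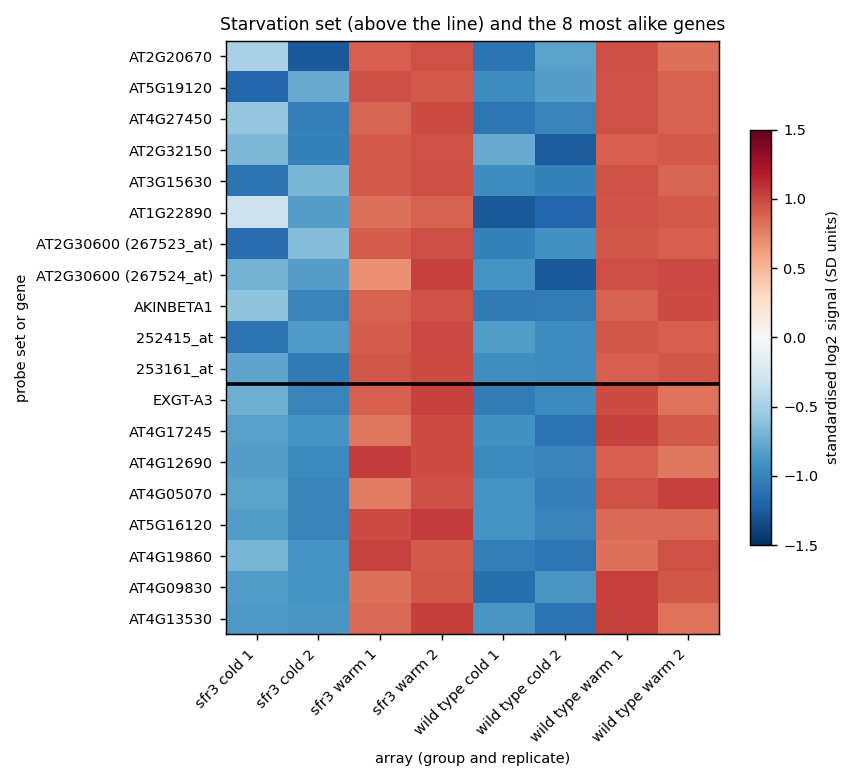
Standardised log2 signals (in SD units over the 8 arrays, blue low and red high) of the 11 probe sets above the line and of the 8 most alike genes under it, with 1 column per array, sfr3 left of wild type. All cold columns are blue and all warm columns red, and AT1G22890 is palest on cold sfr3 replicate 1.

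Gene order in the reference annotation was used to see whether neighbours on the chromosome shared the pattern. Of 16 genes flanking the 8 members with a named locus, 5 were tested, too few to set against a share. Over all tested probe sets, 16.4% were called lower in the cold in sfr3 and 13.3% in wild type. AT2G32160, next to AT2G32150, fell in sfr3 (-1.76, adjusted p = 3.78e-04) and in wild type (-1.46, adjusted p = 0.00104). AT5G19110, next to AT5G19120, fell in sfr3 (-3.44, adjusted p = 0.0145), but not when warm sfr3 replicate 1 or 2 was left out (adjusted p = 0.1004 and 0.0983) or with array weights (0.0945). In wild type its difference of -1.37 did not pass (adjusted p = 0.279), and it was -2.71 without warm wild-type replicate 2 (adjusted p = 0.0475). AT5G19130, PORB and AT1G22885 did not pass in either genotype with all arrays. PORB in wild type, at 0.62 (adjusted p = 0.0553), was called in 6 of 18 alternatives. AT5G19130 in sfr3 was at 0.07 with all arrays, at 1.16 without cold replicate 1 (adjusted p = 0.0307) and at -1.02 without cold replicate 2 (adjusted p = 0.0406), and AT1G22885, at -0.65 in sfr3 and -0.63 in wild type, was called in 2 of 18 alternatives in sfr3 and in 4 of 18 in wild type.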

How the data were processed

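The deposited values are intensities on a linear scale from MAS5. GCOS is the other program listed, with no version for either, per the submitters' processing notes, and the treatment of background and mismatch probes is not stated there. Each array had a 2% trimmed mean of 100. After leaving out 64 control probe sets, 2.17 (the 10th percentile of the signals) was added and log2 taken, so that fold changes of dim genes come out too small. The brightest 60% of probe sets by mean signal (26.7 or more) were tested. Names came from the platform's annotation, updated through a TAIR10.1 gene table that also gave gene order. Of the tested probe sets, 7336 had 1 gene, 277 had several and 6035 had none. Outside the set, the brightest probe set stood for a gene.

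The 8 arrays were fitted together, with 4 group means, in limma 3.58.1 (R 4.3.3) with an intensity trend, leaving 4 residual and 5.17 prior degrees of freedom. Two-sided p-values were adjusted over the 13648 probe sets (Benjamini-Hochberg), and calls needed an adjusted p below 0.05. All p-values given are limma's. The fit was also run on data simulated with each group's own spread, drawn anew for every array from probe sets of similar brightness. The size of the change was checked in wild type alone, where a difference of group means returns it by construction. For cold in sfr3 the false calls exceeded the threshold, and in wild type they did not. The number of arrays limits the precision. A probe set under the 95th percentile of the dark controls on both arrays of a group has only a bound there.

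The members, the gene lists and the tests were chosen with earlier results of these data known. Named genes were all members, up to 3 called genes of each list (or 2 with the smallest p), every measured SnRK1 subunit and starvation gene, and the 8 most alike genes. Gene neighbours and other genes were named after their values were seen. Alternatives were median centring, quantile normalization, pseudocounts of 1 and 16, no filter or the brightest 40%, no trend, array weights, only the groups compared, the replicate block, and leaving out each array.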

Additional observations from a re-analysis of the deposited data

How the results depend on the processing

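The cold differences of all 11 probe sets kept their sign under all 18 alternatives, between -7.92 and -2.52 in sfr3 and between -7.37 and -3.74 in wild type. Counts over all probe sets moved more. With array weights, calls were 2236 for cold in sfr3 (4261 in the chosen fit), 6600 in wild type (3594), 10 for sfr3 against wild type in the cold (17) and 1 in the warm (0). With only the groups compared these counts were 1867, 6551, 4 and 1. Without the trend, 0 were called for the averaged genotype comparison (7), 11 in the cold and 0 for the interaction (5). Median centring gave 0 for the averaged comparison and for the interaction, and quantile normalization 3 for the interaction. Leaving out 1 array gave 2027 to 7981 for cold in sfr3, 1500 to 6206 in wild type, 0 to 3250 for the averaged comparison, 6 to 5372 in the cold, 0 to 1 in the warm and 0 to 3802 for the interaction. The count in wild type was highest without cold sfr3 replicate 1, and the other counts above 1 were highest without cold sfr3 replicate 2. Of the members, 0 to 6 were called in the averaged comparison.

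Averaged genotype differences of 7 probe sets changed sign when 1 array was left out. They ran from -0.48 to 0.87 for AT2G20670, from -0.46 to 0.27 for AT5G19120, from -0.076 to 0.55 for AT2G32150, from -0.11 to 0.40 for AT3G15630, from -0.18 to 0.41 for 267523_at, from -0.28 to 0.11 for 252415_at and from -0.17 to 0.36 for 253161_at. Quantile normalization gave -0.0028 for AT3G15630, -0.033 for 267523_at and -0.018 for 253161_at, and median centring -0.0002 for 253161_at. The cause was not tested.

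Among other genes, cold differences that passed no test with all arrays changed sign. With 1 array left out, those in sfr3 ran from -0.62 to 0.078 for SAG101, from -1.02 to 1.16 for AT5G19130, from -0.49 to 0.45 for COR47 and from -0.55 to 0.18 for AT2G28060, and that of LHCB4.1 in wild type from -0.32 to 0.12. Quantile normalization gave -0.33 for RCA, -0.43 for LHCB4.1 and -0.18 for AT5G19130 in sfr3, and median centring -0.017 for LHCB4.1 and -0.18 for AT5G19130. Median centring moved the median of all tested probe sets for cold in sfr3 to -0.19, against 0.06, that of the averaged genotype comparison to -0.11, against -0.01, that of the comparison in the cold to -0.26, against -0.01, and that of the interaction to -0.31, against -0.00.

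With the replicate number as a block, calls were 4026 for cold in sfr3, 3397 in wild type, 7 for the averaged comparison, 16 in the cold, 0 in the warm and 4 for the interaction, with 0 members in the averaged comparison. Same-numbered arrays did not deviate together (correlations from -0.09 to 0.05 over the group pairs). With so few arrays per group, these correlations cannot decide whether the numbers pair the samples. The cold sfr3 pairs also include the array that stood apart. Whether same-numbered samples were handled together was not tested. The planned search for promoter motifs was not run, since no promoter sequence was used here.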
